A study of Mus musculus with 18 samples.

Results

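Gene expression in memory CD8 T cells held for 20 hours with interleukin-7 (IL-7) was set against that of memory CD8 T cells measured without culture. The arrays were chosen by their titles: 2 arrays of IL-7-treated memory cells and 4 arrays of ex vivo memory cells, together 6 of the 18 arrays of the study, with both arrays of memory cells kept in medium left out. All cells came from mice of genotype C57Bl/6 carrying the F5 T cell receptor transgene, so that the memory cells share 1 receptor specificity. The memory cells, named TIM in the labels, came from mice given the NP68 peptide in 2 immunisations, were taken at day 45 and were sorted by flow cytometry from spleen. The cells of the IL-7 arrays then spent 20 hours in vitro with IL-7 at 10 ng/mL, and the ex vivo cells had neither culture nor cytokine. For 1 further comparison, 2 arrays of naive F5 CD8 T cells cultured with IL-7 for the same time and at the same dose were set against 2 arrays of ex vivo naive cells. The design text states that samples from 2 of the 4 sorted memory populations were cultured, without naming them. In their titles the 4 ex vivo arrays are biological replicates, whereas the 2 cultured arrays are called replicates with no such word. The p-values rest on 1 estimate of spread per gene, shared by 16 arrays in 7 groups, which include naive and IL-4-treated cells. They therefore measure no more than the spread within those groups, part of which may be technical. The number of mice behind each population is not given in the sources used here.

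IL-7 is a survival cytokine of resting T cells. It binds a receptor made of the IL-7 receptor alpha chain, encoded by Il7r, and the common gamma chain, and signals through the kinases JAK1 and JAK3 to the transcription factor STAT5, which induces feedback inhibitors of the SOCS family (Cish, Socs2) and the survival gene Bcl2. Memory CD8 T cells need IL-7 and IL-15 for their maintenance, and they hold effector transcripts such as those of interferon gamma and granzymes at higher levels than naive cells.

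The values are log2 RMA values, and each of 13770 genes was tested by 1 probe set with limma at a Benjamini-Hochberg adjusted p under 0.05. The 2 IL-7 arrays correlated with the 4 ex vivo arrays at r = 0.952 to 0.962 over these genes, against 0.988 to 0.991 between the ex vivo arrays. The cultured arrays had particular relations that bear on every result. The difference between IL-7 array 1 and medium array 1 had an SD of 0.228 over genes, and that between IL-7 array 2 and medium array 1 an SD of 0.229, both below the 0.262 between the 2 IL-7 arrays. In a fit with medium array 1 as the only medium sample, which is assumed to vary like the other groups, limma called 0 genes between the IL-7 arrays and medium array 1, and 86 of 13770 had an unadjusted p under 0.05. Those 86 are well under the share of 0.05 that would be reached with no difference at all. The test was thus overly cautious here, and its lack of calls does not show that the samples were alike. Medium array 2 lay at an SD of 0.239 from ex vivo memory array 2, closer than any pair of ex vivo memory arrays (0.341 to 0.385). In these 6 arrays, 20 hours of culture and IL-7 cannot be told apart. Medium array 1 against the 4 ex vivo arrays gave 2257 called genes, and the comparison shares its ex vivo arrays with that of IL-7.

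The sort was checked by marker genes. The log2 of the summed CD8 T cell markers was 15.1 to 15.3 on the IL-7 arrays and 15.1 to 15.2 on the ex vivo arrays. Marker sums of some other cells were lower on the IL-7 arrays. The sum was 6.34 to 6.40 on the IL-7 arrays against 6.68 to 7.51 on the ex vivo arrays for NK cells and 7.89 to 8.08 against 8.22 to 8.51 for myeloid cells. It was 10.4 to 10.6 on the IL-7 arrays against 10.5 to 11.2 on the ex vivo arrays, with overlapping ranges, for dendritic cells and MHC class II. For B cells, CD4 T cells, platelets and stroma the ranges overlapped, as did those of red cell precursors at 7.71 to 10.2 on the IL-7 arrays and 8.41 to 11.6 on the ex vivo arrays. The MHC class II gene H2-Aa read 3.30 and 3.97 on the IL-7 arrays, against 7.49, 7.30, 4.89 and 5.37 on the ex vivo arrays, a fall of 2.63 on the log2 scale (adjusted p = 0.00283, and 0.0523 without IL-7 array 1). Cd74, its invariant chain, fell by 1.92 (adjusted p = 0.0241), a call lost without either IL-7 array (0.138 and 0.114) and without ex vivo array 1 or 2 (0.0564 and 0.0589). On all 6 arrays, 1 of 10 myeloid markers (Itgam), 1 of 7 B cell markers (Fcrla), 1 of 4 CD4 T cell markers (Foxp3) and 3 of 6 stromal and endothelial markers (Cdh5, Col1a1 and Col3a1) read under 4.06, the value of the filter on low signals. So did 1 of 4 red cell precursor markers and 1 of 5 platelet markers, but none of 4 NK cell markers and none of 9 of dendritic cells and MHC class II. Between the 3-prime and 5-prime control probe sets of Gapdh, the log2 gap was 3.36 and 2.91 on the IL-7 arrays, against 2.07 to 2.62 on the ex vivo arrays. For Actb this gap was 2.25 and 1.86 on the IL-7 arrays, against 1.96 to 2.07 on the ex vivo arrays, with overlapping ranges. The part of these marker and 3-prime differences in the results was not tested.

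Compared with ex vivo cells, 3707 of 13770 genes, or 26.9%, differed in the memory cells with IL-7: 2176 (15.8%) were higher and 1531 (11.1%) were lower. The rises were more numerous and the falls were larger. Among called genes, 903 were higher and 593 lower by more than 1 on the log2 scale, but beyond 2 there were 92 higher and 146 lower, and beyond 3 there were 7 higher and 51 lower. The median change of all genes tested was -0.05. The shares of 15.8% higher and 11.1% lower are the background for the list counts that follow. The IL-7 and ex vivo arrays did not overlap for 6992 of the 13770 genes (50.8%), and for 25.2% both IL-7 arrays lay below all ex vivo arrays. In the plot of change against ex vivo level, the deepest falls lie among genes that were bright ex vivo. This must be so, since only a bright gene can fall far before it reaches background. With only IL-7 array 2 or only IL-7 array 1 in the group, 2063 and 2059 genes were called; the lone array is then assumed to vary like the other groups.

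**Figure D1:**
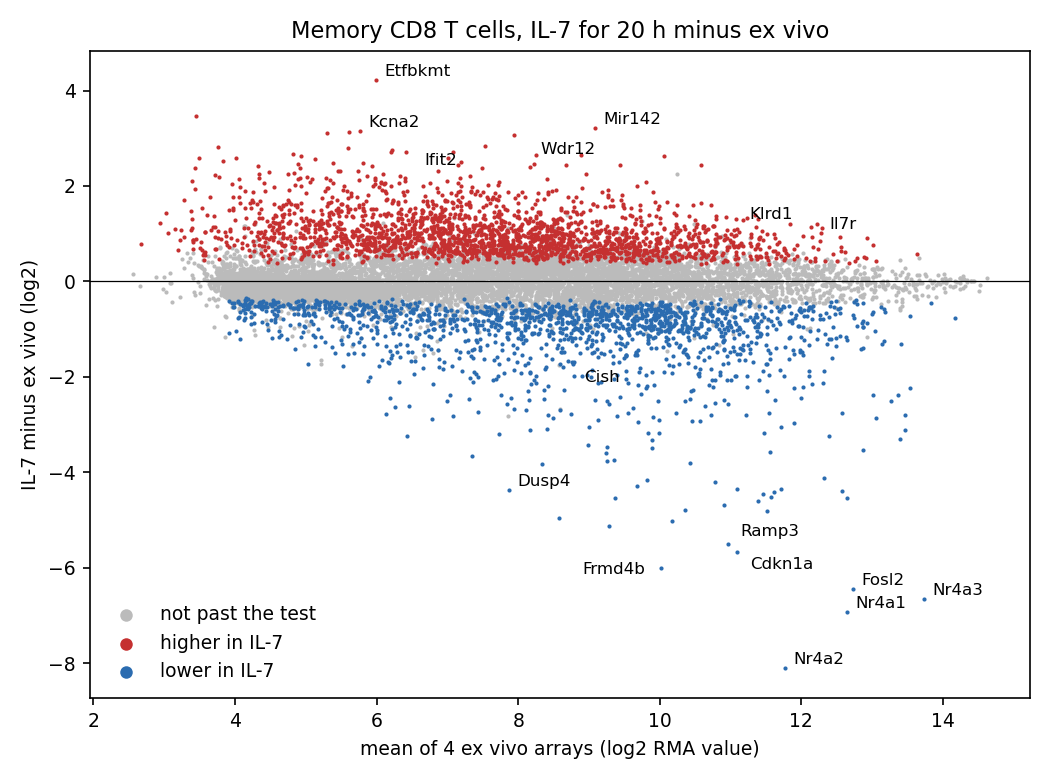
Change in log2 RMA value (IL-7 minus ex vivo, vertical axis) against the mean of the 4 ex vivo arrays (horizontal axis) for the 13770 genes tested, with the 2176 genes called higher in red and the 1531 called lower in blue. Falls reached -8.11 for Nr4a2, while the largest rise was 4.22, for Etfbkmt.

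Immediate early genes fell together and furthest. These genes encode transcription factors that are switched on within minutes of receptor signalling without new protein synthesis, among them the AP-1 proteins FOS and JUN, the EGR zinc fingers and the NR4A orphan nuclear receptors. Of 22 such genes tested, 18 fell and 0 rose, with a median change of -3.45; 17 and 16 fell when IL-7 array 1 or 2 was left out. The 3 NR4A genes fell furthest of the list on their main probe sets. The start regions of these genes are shown for a sequence they have in common. Each runs from 250 bases before to 50 after the annotated start in RefSeq on GRCm38.p6, at chr15:101266596-101266895 (plus strand) for Nr4a1, chr2:57123954-57124253 (minus strand) for Nr4a2 and chr4:48045055-48045354 (plus strand) for Nr4a3, with capitals for TGACG, the half-site bound by CREB and ATF factors, or its reverse complement.
Nr4a1: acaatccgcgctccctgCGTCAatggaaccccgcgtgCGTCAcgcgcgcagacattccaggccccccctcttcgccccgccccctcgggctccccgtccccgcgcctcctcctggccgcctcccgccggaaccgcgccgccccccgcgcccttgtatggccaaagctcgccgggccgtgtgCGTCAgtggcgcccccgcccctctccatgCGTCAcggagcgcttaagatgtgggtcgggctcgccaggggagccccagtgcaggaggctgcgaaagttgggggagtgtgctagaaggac
Nr4a2: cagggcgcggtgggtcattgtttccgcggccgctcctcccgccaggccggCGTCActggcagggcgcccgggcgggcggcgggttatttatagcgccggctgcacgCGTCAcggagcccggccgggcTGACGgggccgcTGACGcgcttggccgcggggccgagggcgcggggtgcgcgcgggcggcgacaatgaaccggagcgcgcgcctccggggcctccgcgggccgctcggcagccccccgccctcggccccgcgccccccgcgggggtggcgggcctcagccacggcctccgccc
Nr4a3: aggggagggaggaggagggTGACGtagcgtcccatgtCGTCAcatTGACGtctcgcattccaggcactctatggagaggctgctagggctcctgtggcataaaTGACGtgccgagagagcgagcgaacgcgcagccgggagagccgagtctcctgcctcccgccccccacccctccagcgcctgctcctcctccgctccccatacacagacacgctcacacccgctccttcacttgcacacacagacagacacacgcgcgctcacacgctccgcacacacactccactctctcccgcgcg

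Each of the 3 sequences held 4 matches to TGACG, at positions -233 to -40 from the annotated start for Nr4a1, -200 to -111 for Nr4a2 and -231 to -147 for Nr4a3. Of the 18 immediate early genes with a promoter in the RefSeq table, 12 held TGACG on either strand, as did 6228 of all 27025 genes with a promoter of the same length in the table, counting a gene once. A match describes the letters of the window and says nothing of what binds there.

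Nr4a2 read 3.42 and 3.90 on the IL-7 arrays, against 11.55, 11.76, 11.92 and 11.85 on the ex vivo arrays. Both IL-7 values lay under the filter value, so the fall of 8.11 on the log2 scale (SE 1.08, adjusted p = 8.43e-05) was one to a level near background. Nr4a1 read 5.77 and 5.64 on the IL-7 arrays, against 12.86, 12.56, 12.54 and 12.61 on the ex vivo arrays. With no overlap and little spread within either group, Nr4a1 fell by 6.94 (SE 0.76, adjusted p = 1.71e-05). The SE also reflects the other groups in the fit, such as the naive IL-7 arrays, which read 6.88 and 9.62. Nr4a3 read 6.98 and 7.18 on the IL-7 arrays, against 13.72, 13.59, 13.63 and 14.00 on the ex vivo arrays, a fall of 6.65 (adjusted p = 3.96e-05). On these probe sets, all 3 NR4A genes were thus high on every ex vivo array and low on both IL-7 arrays. The other probe set of Nr4a3 changed by -0.38 and did not pass (adjusted p = 0.151). Of the 6 Nr4a2 probe sets, 5 were called lower, with changes from -8.11 to -0.52. The last changed by -0.52 (adjusted p = 0.118).

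The AP-1 genes differed in how far they fell. Fosl2, whose product is the FOS family member FRA2, read 6.04 and 6.53 on the IL-7 arrays, against 12.39, 12.61, 13.06 and 12.87 on the ex vivo arrays (change -6.45, SE 0.45, adjusted p = 3.54e-07). Junb fell by 4.60, Fosb by 4.45 and Fos by 3.29, and Jun by 1.20 (adjusted p = 0.0158, lost without IL-7 array 2 at 0.229). Fos nonetheless remained bright, at 10.48 and 9.70 on the IL-7 arrays, against 13.63, 13.05, 13.50 and 13.38 on the ex vivo arrays. Fosb spread most on the IL-7 arrays, at 7.85 and 6.15, against 12.04, 11.26, 11.29 and 11.23 ex vivo.

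Atf3, a stress-induced member of the ATF family, read 4.27 and 4.06 on the IL-7 arrays, against 9.95, 9.32, 8.89 and 8.98 on the ex vivo arrays (change -5.12, SE 0.72). The EGR genes, targets of MAP kinase signalling, fell as well: Egr1 by 4.39 (SE 0.64, adjusted p = 0.000192) and Egr2 by 3.60 (SE 0.69, adjusted p = 0.00137). Egr3 was measured by 2 probe sets that disagreed, with a change of -0.25 (adjusted p = 0.308) on the brighter and of -4.10 (adjusted p = 0.00791) on the other; p-values of further probe sets are adjusted over all probe sets fitted. Falls of more than 4 were also found for Klf4, a Krüppel-like factor (-4.54), and Maff, a small MAF protein (-4.68), and smaller ones for Csrnp1 (-2.87) and Ier2 (-2.37). Btg2, an antiproliferative factor, fell by 0.95 (adjusted p = 0.0141, and 0.318 without IL-7 array 1), and Ier5 by 0.83 on the main probe set, while another of its 3 probe sets gave 0.16. The plot of the 22 genes by array shows 2 separate bands for most of them.

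**Figure D2:**
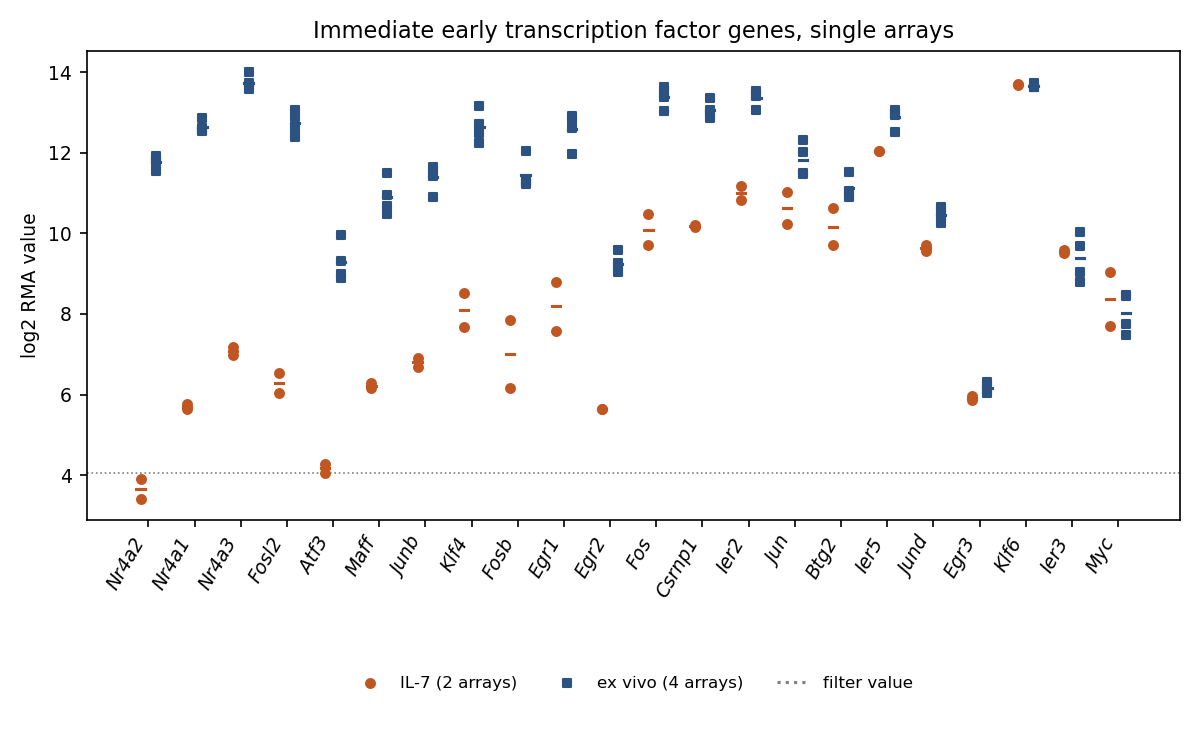
Log2 RMA values of 22 immediate early genes on single arrays, IL-7 (circles, 2 arrays) left of ex vivo (squares, 4 arrays), ordered by the change, with group means as bars and the filter value of 4.06 dotted. Nr4a2 lies at 3.42 and 3.90 with IL-7 and at 11.55 to 11.92 ex vivo, and Myc, at the right, overlaps between the groups.

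Klf6 and Myc did not pass the test. Klf6 read 13.68 and 13.71 on the IL-7 arrays, against 13.73, 13.64, 13.62 and 13.64 on the ex vivo arrays, yet 1 of its 5 probe sets fell by 1.20 (adjusted p = 0.000985). Myc, the regulator of cell growth, read 9.05 and 7.69 on the IL-7 arrays, against 8.45, 7.48, 7.75 and 8.46 on the ex vivo arrays. Its IL-7 arrays disagreed: the change was 0.34 with both (adjusted p = 0.481), 1.02 without IL-7 array 2 (adjusted p = 0.0491) and -0.34 without IL-7 array 1.

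Genes whose products damp MAP kinase and G protein signalling fell as a group. Of 15 MAP kinase phosphatase (DUSP), RGS, Sprouty and SPRED genes, 11 fell and 0 rose (median -1.89; 9 and 10 without IL-7 array 1 and 2). Dusp5, a nuclear phosphatase of ERK, read 6.72 and 6.70 on the IL-7 arrays, against 11.40, 11.10, 11.91 and 11.62 on the ex vivo arrays (change -4.80, SE 0.21, adjusted p = 9.30e-09). Dusp4 dropped under the filter value, at 3.53 and 3.45, against 7.81, 7.54, 8.35 and 7.79 ex vivo. Dusp10, which acts on JNK and p38, fell by 4.11 (SE 0.19), and Dusp1, Dusp2 and Dusp6 by 1.88, 1.99 and 1.99. Rgs2, a GTPase activator for G protein alpha subunits, read 7.06 and 7.65 on the IL-7 arrays, against 11.57, 11.62, 11.86 and 11.79 on the ex vivo arrays (change -4.35, SE 0.20). Rgs1, which limits responses to chemokines, fell by 3.80 (SE 0.20, adjusted p = 3.45e-08), and Spred2, an inhibitor of RAF activation, by 1.89. Rgs16 had a change of -1.24 that did not pass (adjusted p = 0.0939). Its arrays did not overlap, as was so for 50.8% of all genes tested. With only the IL-7 and ex vivo memory arrays in the limma fit, Rgs16 passed (adjusted p = 0.00172).

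Transcripts of the NF-kB system moved the same way. Of 14 genes, 11 fell and 1 rose, with a median of -1.14; the number that fell was 7 with IL-7 array 1 left out and 6 with IL-7 array 2 left out. Rel, the subunit c-Rel, read 6.12 and 5.46 on the IL-7 arrays, against 9.59, 9.35, 8.47 and 9.60 on the ex vivo arrays (change -3.46, SE 0.38). Tnfaip3, which encodes the inhibitor A20, fell by 2.80 (SE 0.22, adjusted p = 1.15e-06) and Nfkbid, an atypical nuclear inhibitor, by 2.97 (SE 0.34), while Relb fell by 1.55. Traf1, an adaptor of TNF receptors, was the member that rose, by 0.93 (SE 0.19, adjusted p = 0.00190), but another of its probe sets gave 0.56 (adjusted p = 0.305). In these bulk samples, fewer cells holding a transcript and less of it per cell cannot be told apart.

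Stress genes fell in number. Of 15 heat shock and GADD45 genes, 11 fell and 0 rose (median -1.34; 8 and 9 without IL-7 array 1 and 2). Hspa1a, an inducible HSP70, read 6.26 and 4.86 on the IL-7 arrays, against 11.06, 9.76, 10.57 and 10.01 on the ex vivo arrays (change -4.79, SE 0.56). Its near-identical copy Hspa1b fell by 4.42 (SE 0.85), and probe sets may not separate the pair, so the levels of the single genes are uncertain. The constitutive Hspa8 had 14.01 and 13.75 with IL-7 and 13.92 to 14.12 ex vivo on its main probe set, with a change of -0.14 (adjusted p = 0.508), and 1 of its 4 probe sets fell by 1.87. All 3 GADD45 genes, which act in growth arrest and p38 signalling, fell: Gadd45b by 4.35 (SE 0.86), Gadd45g by 2.91 (SE 0.29) and Gadd45a by 2.77 (SE 0.37).

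Targets of p53 split. Of 21 listed, 11 fell and 6 rose (median -0.65; 6 and 7 fell and 4 rose in each case without IL-7 array 1 and 2). Cdkn1a, the cell cycle inhibitor p21, read 5.36 and 5.50 on the IL-7 arrays, against 11.20, 11.14, 10.96 and 11.09 on the ex vivo arrays. The groups lay far apart, and Cdkn1a fell by 5.67 (SE 1.10, adjusted p = 0.00155). The naive IL-7 arrays, which share the fit, read 5.24 and 10.04 for this gene, far more spread than either memory group. Trp53inp1, a pro-autophagic and pro-apoptotic protein, read 12.49 and 12.63 on the IL-7 arrays, against 11.40, 11.24, 11.28 and 11.02 on the ex vivo arrays, a rise of 1.32 (SE 0.13, adjusted p = 9.73e-06). Zmat3, an RNA-binding p53 target, rose by 1.19 (SE 0.21). Of 13 glucocorticoid responsive genes, which share Cdkn1a and Ddit4 with the p53 list, 6 fell and 0 rose. Per1, a clock gene, fell by 2.49 (SE 0.29), Ddit4, an inhibitor of mTORC1, by 1.84 (SE 0.30), and Tsc22d3, which encodes GILZ, by 1.23 (SE 0.15).

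Effector transcripts were lower in part. Of 15 cytotoxic granule genes tested, 9 fell and 0 rose (median -0.66; 6 and 7 without IL-7 array 1 and 2), and 5 more were under the filter. Gzma, a granzyme, read 5.04 and 5.57 on the IL-7 arrays, against 8.64, 8.03, 7.78 and 9.19 on the ex vivo arrays (change -3.10, SE 0.39). Gzmb read 4.38 and 4.12 on the IL-7 arrays, against 7.35, 7.26, 6.37 and 7.32 on the ex vivo arrays (change -2.83, SE 0.41). Neither granzyme overlapped between the groups, as was so for 50.8% of all genes tested, and Gzmb came close to the filter value with IL-7. Nkg7, a granule membrane protein, fell by 1.48 (SE 0.24), and Prf1, which encodes perforin, by 1.27 (adjusted p = 0.0433). The call on Prf1 was lost in 8 of the 16 alternative settings, including those that leave out IL-7 array 1 (0.291) or 2 (0.0980) and ex vivo array 1 (0.0541) or 3 (0.0728). The NK cell marker sums given above were also lower on the IL-7 arrays.

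Among 14 cytokines and death ligands, 3 fell and 3 rose (21.4% each, beside 11.1% lower and 15.8% higher of all genes tested). Fewer rises were called when either IL-7 array was left out. Ifng, the interferon gamma gene, read 9.89 and 9.75 on the IL-7 arrays, against 12.55, 11.92, 11.38 and 12.27 on the ex vivo arrays (change -2.21, SE 0.40, adjusted p = 0.000985). Fasl, the ligand of the death receptor FAS, read 5.53 and 5.69 on the IL-7 arrays, against 9.67, 9.02, 9.17 and 9.54 on the ex vivo arrays (change -3.74, SE 0.20, adjusted p = 4.97e-08). Tnf fell by 1.74 (SE 0.32). Il16, a chemoattractant cytokine released from a precursor, went the other way, with 11.60 and 11.97 on the IL-7 arrays, against 10.12, 9.88, 9.98 and 9.62 on the ex vivo arrays (change 1.88, SE 0.21). Of the chemokines, Cxcl10, a ligand of CXCR3, fell by 2.86 (SE 0.49). Ccl5, a hallmark of memory CD8 T cells, read 12.03 and 11.95 with IL-7 and 12.62, 12.06, 11.42 and 11.76 ex vivo, with overlapping arrays and a change of 0.03 (SE 0.30). Ccl4 had a change of -1.59 that did not pass (SE 1.17, adjusted p = 0.350), but passed when limma was fitted to the IL-7 and ex vivo memory arrays alone (adjusted p = 0.00252).

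The transcription factors of effector and memory differentiation gave 6 falls and 2 rises among 18, but only 3 falls with IL-7 array 1 left out and 1 with IL-7 array 2 left out. Irf4, which is induced by receptor signalling, read 5.55 and 5.22 on the IL-7 arrays, against 10.04, 9.09, 9.83 and 9.72 on the ex vivo arrays. Despite that gap the SE, which rests on all groups in the fit, was 1.31. The call (change -4.29, adjusted p = 0.0250) was lost when either IL-7 array was left out. The other of its 2 probe sets gave 0.04. Bhlhe40, a repressor that controls cytokine production, fell by 3.42 (adjusted p = 0.00672, and 0.0646 without IL-7 array 2), and Irf8 by 2.50 (adjusted p = 0.0165, and 0.0978 and 0.0993 without IL-7 array 1 and 2). Id2, an inhibitor of E proteins, fell by 1.16 on its main probe set (adjusted p = 0.00768, and 0.169 without IL-7 array 2), while another of its 3 probe sets gave 0.21. The T-box factors did not pass: Eomes had a change of 0.02 (SE 0.57) and Tbx21, which encodes T-bet, of -0.97 (SE 0.65, adjusted p = 0.306). With only the IL-7 and ex vivo memory arrays in the limma fit, Tbx21 passed (adjusted p = 0.0196).

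Of 11 NK-type receptor genes tested, 3 fell and 1 rose, and the falls were 2 and 0 without IL-7 array 1 and 2. Klrd1, the CD94 chain of NKG2 receptors, rose by 1.05, with 12.49 and 12.49 on the IL-7 arrays, against 11.61, 11.25, 11.47 and 11.43 on the ex vivo arrays (SE 0.24, adjusted p = 0.00526). Hcst, the adaptor DAP10, fell by 1.0 (adjusted p = 0.0109, and 0.117 without IL-7 array 2). Tyrobp, the adaptor DAP12 that also marks NK and myeloid cells, fell by 1.24 (adjusted p = 0.0168, and 0.0669 and 0.139 without IL-7 array 1 and 2). The change of Klrk1, which encodes NKG2D, was -0.55 (adjusted p = 0.0583). It passed with the replicate block (-0.71, adjusted p = 0.0145) and without ex vivo array 3 (-0.72, adjusted p = 0.00489).

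Genes known to respond to IL-7 through STAT5 did not move as 1 group: of 22, 2 rose, 8 fell and 12 did not pass (median -0.18; 2 and 3 rose and 7 and 6 fell without IL-7 array 1 and 2). These counts pool the genes without regard to the direction in which IL-7 is known to move each. Cish, the SOCS family gene that STAT5 induces, read 7.49 and 6.62 on the IL-7 arrays, against 8.83, 8.55, 8.68 and 9.06 on the ex vivo arrays. Both IL-7 arrays lay below every ex vivo array, as for 25.2% of all genes tested. The change was -1.72 (SE 0.35, adjusted p = 0.00209), and without IL-7 array 2 it was -1.29, with the call lost. Its start region in RefSeq on GRCm38.p6, chr9:107296409-107296708 (plus strand), is shown because 2 matches to TTCNNNGAA, the STAT motif, lie next to each other there, in capitals.
Cish: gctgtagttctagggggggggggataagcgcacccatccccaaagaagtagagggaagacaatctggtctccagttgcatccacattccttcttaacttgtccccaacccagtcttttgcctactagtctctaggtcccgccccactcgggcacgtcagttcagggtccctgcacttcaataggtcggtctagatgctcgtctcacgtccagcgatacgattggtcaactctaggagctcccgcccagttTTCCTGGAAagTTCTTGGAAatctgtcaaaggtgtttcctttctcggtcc

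The matches began at the annotated start and 11 bases after it. Of the 19 genes of the list with a promoter in the table, 5 held TTCNNNGAA (Cish, Socs3, Il7r, Lta and Bcl6), as did 9.55% of the 27025 genes.

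Il7r, the gene of the receptor alpha chain itself, read 13.26 and 13.33 on the IL-7 arrays, against 12.29, 12.22, 12.33 and 12.29 on the ex vivo arrays. The groups were tight and apart, and Il7r rose by 1.01 (SE 0.17, adjusted p = 0.000546). From medium array 1, which had no IL-7, the IL-7 arrays differed by only -0.12 for Il7r. Whether this rise is a response to IL-7 was not tested. Igf1r, a growth factor receptor, was the other riser of the list, at 9.51 and 9.22 on the IL-7 arrays, against 7.59, 7.90, 8.24 and 7.39 on the ex vivo arrays (change 1.58, SE 0.23). The feedback inhibitor Socs3 fell by 1.88 (SE 0.24), the kinase gene Pim2 by 1.48 (SE 0.24) and Il4ra, the IL-4 receptor chain, by 1.87 (SE 0.28). The related kinase gene Pim3, which is not in this list, fell by 2.38 (SE 0.14).

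Socs2, Lta and Bcl2, which IL-7 is known to raise, overlapped between the groups. Socs2 read 5.53 and 4.33 on the IL-7 arrays, against 5.28, 4.05, 5.21 and 4.78 on the ex vivo arrays (change 0.10, SE 0.39). Lta, lymphotoxin alpha, read 6.32 and 5.53 on the IL-7 arrays, against 6.10, 5.61, 5.89 and 5.92 on the ex vivo arrays (change 0.04, SE 0.31). Bcl2 read 11.20 and 9.72 on the IL-7 arrays, against 10.07, 9.45, 10.14 and 9.73 on the ex vivo arrays, so IL-7 array 1 was high and IL-7 array 2 lay within the ex vivo range. With its brightest probe set, the Bcl2 change was 0.61 (SE 0.32, adjusted p = 0.191), and 1.35 without IL-7 array 2 (adjusted p = 0.00818) but -0.13 without IL-7 array 1. The 5 Bcl2 probe sets disagreed: 2 of them rose, by 4.31 (adjusted p = 5.56e-05) and 3.89 (adjusted p = 4.46e-06), and 3 did not pass. On the second of those, the IL-7 arrays read 12.34 and 10.95, against 8.27, 7.81, 7.74 and 7.18 on the ex vivo arrays. Il2ra, the IL-2 receptor alpha chain, read 4.56 and 4.14 on the IL-7 arrays, against 5.41, 5.26, 5.10 and 6.24 on the ex vivo arrays (change -1.16, adjusted p = 0.271). The fall of Il2ra passed when limma was fitted to these memory arrays alone (adjusted p = 0.0151).

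The arrays of naive cells labelled with IL-7 gave other values for these genes. Both memory IL-7 arrays lay nearer to medium array 1 than to each other, and Cish, Socs2 and Lta did not rise on them. Memory and naive values are therefore set side by side by label alone, and whether the labels of the cultured memory arrays hold was not tested. Cish read 9.14 and 10.00 on the naive IL-7 arrays, against 7.05 and 7.84 on the naive ex vivo arrays, a rise of 2.13 (adjusted p = 0.00201). The difference between the memory change and the naive change of Cish was -3.85 (SE 0.53, adjusted p = 0.00525). Lta rose by 3.84 in naive cells and Socs2 by 2.96, and their differences were -3.79 (SE 0.47, adjusted p = 0.00261) and -2.86 (SE 0.60, adjusted p = 0.0427). The difference for Il7r ran the other way, at 1.45 (SE 0.26, adjusted p = 0.0220), with a naive change of -0.44 that did not pass (adjusted p = 0.147). Bcl2 and Il2ra rose in naive cells, by 2.42 and 2.90, but their differences from memory cells did not pass (adjusted p = 0.107 for both). The calls on Cish and Lta held without each of the 10 arrays in turn, whereas that on Socs2 held in only 2 of these 10 and that on Il7r in 6; each was lost without naive IL-7 array 2 (highest adjusted p = 0.181 and 0.142).

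**Figure D3:**
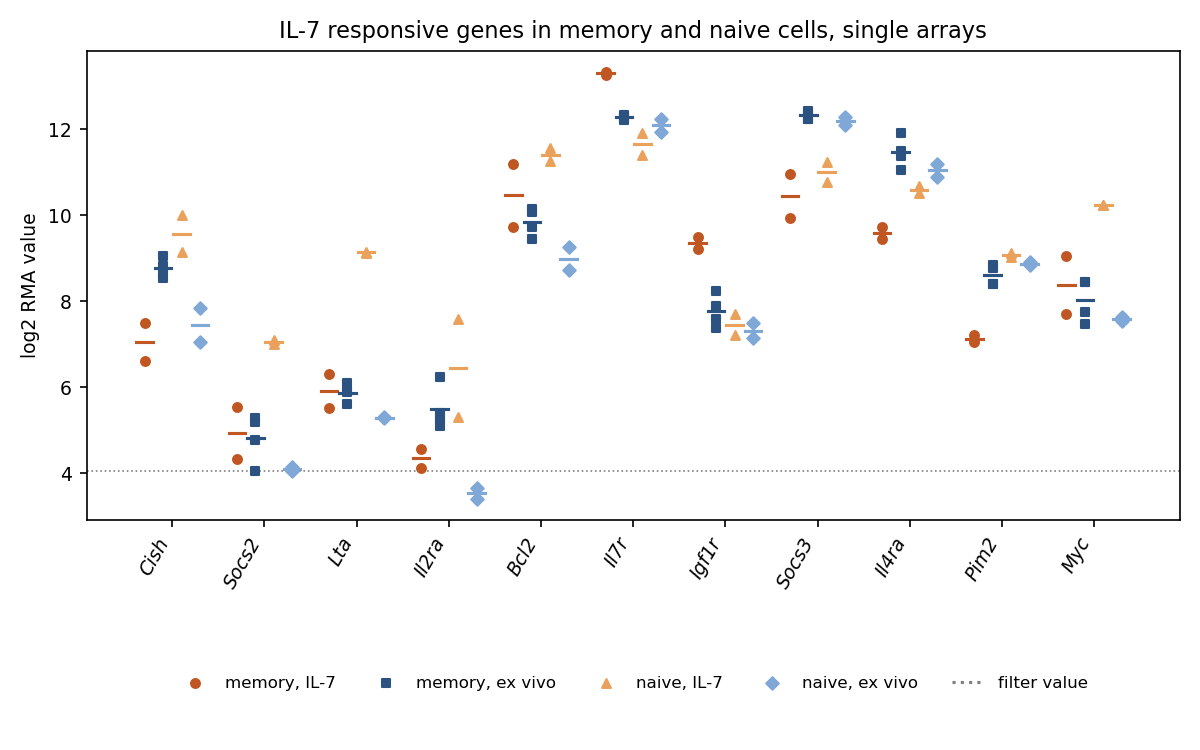
Log2 RMA values on single arrays of 11 genes that respond to IL-7, with memory IL-7 (circles), memory ex vivo (squares), naive IL-7 (triangles) and naive ex vivo (diamonds) from left to right in each gene, and group means as bars. Cish lies at 7.49 and 6.62 in memory cells with IL-7, below memory cells ex vivo, and at 9.14 and 10.00 in naive cells with IL-7, above naive cells ex vivo.

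Among 22 cytokine receptor genes 6 rose (27.3%) and 5 fell (22.7%), beside 15.8% and 11.1% of all genes tested. Fewer of each were called when either IL-7 array was left out. Il2rb, the beta chain shared by the IL-2 and IL-15 receptors, read 6.79 and 6.80 on the IL-7 arrays, against 8.50, 9.19, 8.70 and 8.75 on the ex vivo arrays (change -1.99, SE 0.24). Il21r fell by 2.79 (SE 0.24, adjusted p = 2.63e-06). Il10ra rose by 1.37 (SE 0.23) and Il18r1 by 1.0 (SE 0.22, adjusted p = 0.00424, and 0.0554 without IL-7 array 1). In the JAK and STAT list, which overlaps the STAT5 list, 8 of 24 fell and 2 rose (0 rose without IL-7 array 1); Stat5a fell by 1.91 (SE 0.40) and Jak3, the kinase bound to the common gamma chain, by 1.19 (SE 0.22).

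Genes linked to quiescence through KLF2 and FOXO1 gave the highest median of the function lists, 0.43, with 7 of 20 higher and 3 lower. Fewer of each were called when either IL-7 array was left out. With the probe set of the largest interquartile range, 6 were called higher and 6 lower, so the excess of rises depended on the probe set. Pik3ip1, an inhibitor of PI3 kinase, read 11.58 and 11.77 on the IL-7 arrays, against 10.27, 9.58, 9.60 and 9.27 on the ex vivo arrays (change 1.99, SE 0.24, adjusted p = 4.24e-05). Cnr2, a cannabinoid receptor, rose by 2.01 (SE 0.29) and Lef1, a transcription factor of naive and stem-like cells, by 0.80 on its main probe set (adjusted p = 0.000913) and 0.45 on another (adjusted p = 0.106). Klf2 itself had a change of 0.44 (SE 0.22, adjusted p = 0.174), and S1pr1, its target that directs exit from lymphoid tissue, one of 0.52 (SE 0.32, adjusted p = 0.261). Ccr7, which guides T cells into lymph nodes, fell by 1.39 (adjusted p = 0.00247, and 0.0584 without IL-7 array 1).

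Of 18 homing and adhesion genes 4 rose (22.2%) and 3 fell (16.7%), beside 15.8% and 11.1% of all genes tested. Fewer of each were called when either IL-7 array was left out. Of 12 chemokine receptor genes 1 rose (8.33%) and 2 fell (16.7%). Cxcr4, the receptor of CXCL12, read 6.38 and 7.24 on the IL-7 arrays, against 10.10, 9.57, 10.42 and 9.88 on the ex vivo arrays (change -3.19, SE 0.33). Itga4, an integrin chain of VLA-4, rose by 1.38 (SE 0.22). Cxcr6, a chemokine receptor of tissue-resident cells, rose by 1.75 (adjusted p = 0.00755, and 0.129 without IL-7 array 2), and Icam1 fell by 1.42 (adjusted p = 0.00699, and 0.0631 and 0.0516 without IL-7 array 1 and 2). The activation marker Cd69 had a change of -1.34 that did not pass (adjusted p = 0.0869), and Cd44, the adhesion molecule that marks memory cells, one of -1.08 (SE 0.85, adjusted p = 0.384). Both passed when limma was fitted to the IL-7 and ex vivo memory arrays alone (adjusted p = 0.00382 for Cd69 and 0.00834 for Cd44). In the limma fit to 16 arrays, another Cd44 probe set fell by 0.79 and passed (adjusted p = 0.00917). A further Cd44 probe set changed by -1.30 and did not pass (adjusted p = 0.156). Of 19 costimulatory receptor genes, 7 fell and 1 rose (3 and 6 fell without IL-7 array 1 and 2): Tnfrsf1b, a TNF receptor, fell by 2.30 (SE 0.26) and Slamf6 rose by 1.76 (SE 0.24). Of 11 inhibitory receptor and ectoenzyme genes, 2 rose and 2 fell (18.2% each), with fewer of each called when either IL-7 array was left out. Ctla4 and Cd160 fell by 1.30 (adjusted p = 0.00490, and 0.0942 without IL-7 array 1) and 2.10 (adjusted p = 0.00143, and 0.0506 without IL-7 array 2).

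Genes of biosynthesis were lower with IL-7. Of 32 ribosome biogenesis genes, 18 fell and 1 rose (median -0.65; 11 and 12 fell, and 1 and 2 rose, without IL-7 array 1 and 2). Bysl, a factor of small subunit assembly, read 8.53 and 8.52 on the IL-7 arrays, against 10.10, 10.85, 10.77 and 11.27 on the ex vivo arrays (change -2.22, SE 0.24). The nucleolar proteins encoded by Nop58 and Nop56 fell by 1.90 (SE 0.40) and 1.63 (SE 0.17). Wdr12, a factor of large subunit assembly, was the riser, at 10.38 and 10.76 on the IL-7 arrays, against 8.25, 8.08, 8.02 and 8.29 on the ex vivo arrays (change 2.41, SE 0.16, adjusted p = 2.00e-07). By contrast, 28 of 30 cytosolic ribosomal protein genes and 27 of 28 proteasome subunit genes did not pass.

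In the unfolded protein and amino acid response, 16 of 28 genes fell and 2 rose (median -0.83; 8 and 9 fell without IL-7 array 1 and 2). Hspa5, the endoplasmic reticulum chaperone BiP, read 11.51 and 11.09 on the IL-7 arrays, against 13.48, 13.25, 13.62 and 13.78 on the ex vivo arrays (change -2.23, SE 0.19, adjusted p = 2.28e-06). The amino acid transporter chains Slc7a5 and Slc3a2, which form 1 heterodimer, fell by 2.50 (SE 0.33) and 1.98 (SE 0.27), and Dnajb9, a co-chaperone of BiP, by 2.24 (SE 0.24). Atf4, the transcription factor of the response, fell by 1.60 (SE 0.23), but its target Trib3 rose by 1.86, with 9.95 and 10.32 on the IL-7 arrays, against 8.24, 8.11, 8.02 and 8.73 on the ex vivo arrays (SE 0.34, adjusted p = 0.000946). Mthfd2, a mitochondrial folate enzyme, fell by 1.56 (SE 0.28).

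Among 20 glycolysis genes, 7 fell and 1 rose, and the falls were 4 without either IL-7 array. They included the glucose transporter Slc2a1 (-2.07, SE 0.22), hexokinase 2 (Hk2, -2.91, SE 0.53) and the lactate transporter Slc16a1 (-2.76, SE 0.29), while Pdk1, which restrains pyruvate entry into mitochondria, rose by 0.72 (SE 0.14). Hk2 read 6.17 and 6.27 on the IL-7 arrays, against 8.70, 8.61, 9.17 and 10.04 on the ex vivo arrays. Of 21 nucleotide synthesis genes, 8 fell and 0 rose, with 3 and 2 without IL-7 array 1 and 2; Ctps, the CTP synthase, fell by 1.74 (SE 0.19), and Shmt1, a folate enzyme, by 1.56 on its main probe set (adjusted p = 0.00146) and by 0.32 on another (adjusted p = 0.394). The translation initiation factors Eif4a1 and Eif4e fell by 1.16 (SE 0.20) and 1.14 (SE 0.22), 2 of 5 falls among 18, with fewer called when either IL-7 array was left out. Another Eif4e probe set fell by 0.77 (adjusted p = 0.0390), while changes of -0.24 (adjusted p = 0.467) and -0.23 (adjusted p = 0.491) on others did not pass. Of 42 respiratory chain genes 38 did not pass, with a median of -0.03. Hypoxia responsive genes, which share Pdk1 with the glycolysis list, gave 6 falls and 2 rises among 13 (median -0.95; 4 and 3 falls without IL-7 array 1 and 2). Among lipid genes, 5 of 14 for fatty acid synthesis fell and 2 rose (1 and 2 fell without IL-7 array 1 and 2), and 3 of 20 for cholesterol synthesis fell and 1 rose. Of 19 tRNA synthetase genes 4 fell, but only 1 without either IL-7 array. The plot of gene lists sets these medians side by side.

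**Figure D4:**
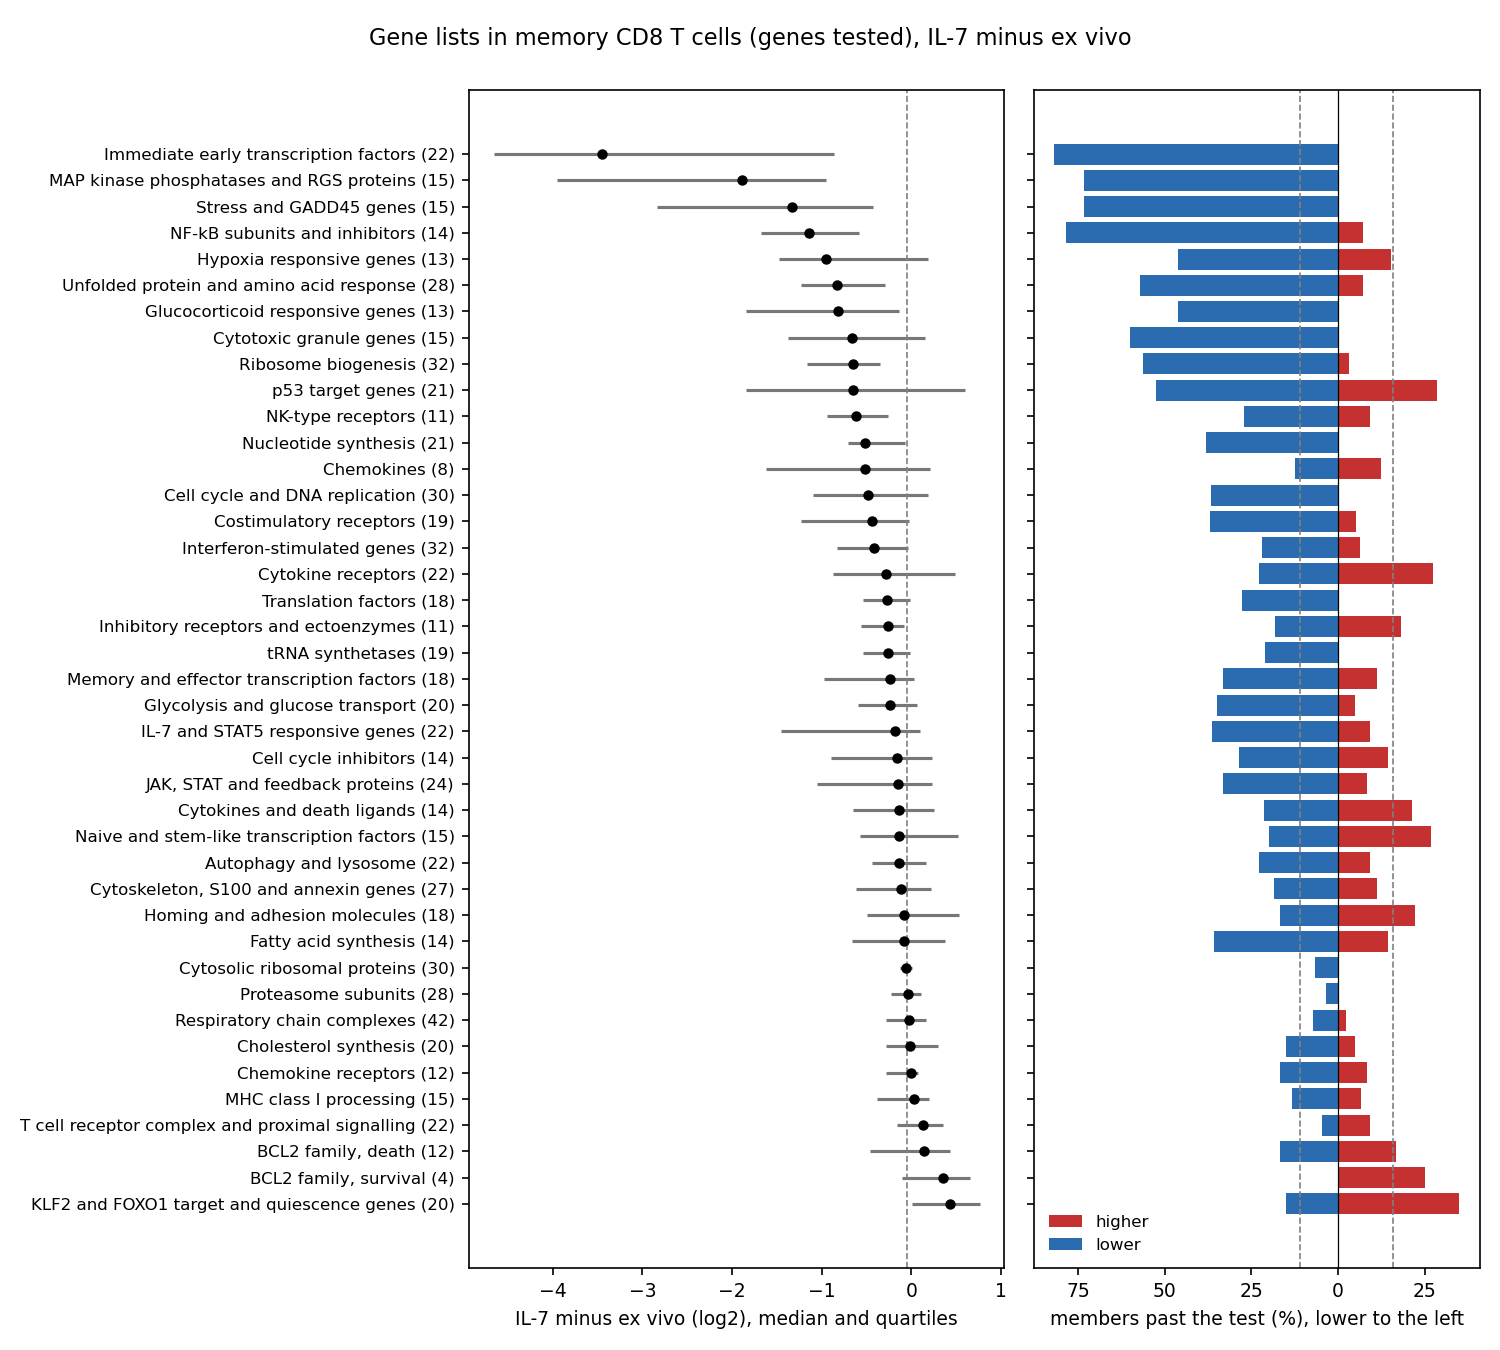
Left, median (points) and quartiles (lines) of the log2 change, IL-7 minus ex vivo, for each gene list, with the number of genes tested in brackets and the median of all 13770 genes, -0.05, dashed. Right, share of each list called higher (red) or lower (blue), with the 15.8% and 11.1% of all genes dashed. The immediate early list stands at -3.45 and the KLF2 and FOXO1 list at 0.43.

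Interferon-stimulated genes gave 7 falls and 2 rises among 32 (3 falls and 1 rise without either IL-7 array). Ifit2, an RNA-binding antiviral protein, read 9.58 and 9.50 on the IL-7 arrays, against 7.68, 6.88, 7.68 and 7.05 on the ex vivo arrays (change 2.22, SE 0.22). Irf7 fell by 1.52 (SE 0.26) and Irf1 by 1.25 (SE 0.20). Rsad2, which encodes viperin, fell by 1.97 (adjusted p = 0.0259, and 0.0651 and 0.218 without IL-7 array 1 and 2), with ex vivo array 1 high at 10.94.

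Of 4 survival genes of the BCL2 family, 1 rose and 3 did not pass. Mcl1, which guards against BIM, read 13.15 and 13.08 on the IL-7 arrays, against 12.94, 12.74, 13.13 and 13.26 on the ex vivo arrays, but 1 of its 6 probe sets fell by 0.59 (adjusted p = 0.00646). Bcl2l2, which encodes BCL-W, rose by 0.79 (SE 0.15), and Bnip3, a mitophagy receptor of the death list, by 1.21 (SE 0.19). Of 30 cell cycle genes, 11 fell and 0 rose (6 and 5 without IL-7 array 1 and 2); Aurka, a mitotic kinase, fell by 1.98 (SE 0.30) and Pcna, the replication clamp, by 1.31 (SE 0.22). Among 22 genes of the T cell receptor complex and proximal signalling, 19 did not pass, and the 2 rises were both lost without either IL-7 array. Cd8a had a change of 0.41 (adjusted p = 0.0892). Cblb, a ubiquitin ligase that limits signalling, fell by 0.89 (SE 0.18) on its main probe set. It fell by 0.93 on another (adjusted p = 0.0402), while 1 more gave -0.20 (adjusted p = 0.620). Of 27 cytoskeleton, S100 and annexin genes, 3 rose (11.1%) and 5 fell (18.5%), beside 15.8% and 11.1% of all genes tested (median -0.11). Lmna, which encodes lamin A/C, fell deeply (change -5.01, SE 0.48). Lmna read 5.09 and 5.22 on the IL-7 arrays, against 10.58, 10.91, 9.43 and 9.76 on the ex vivo arrays. Its other probe sets changed by -3.63, by -0.68 (adjusted p = 0.0193) and by -0.07 (adjusted p = 0.780). Capg, an actin-capping protein, rose by 1.97 (SE 0.28), and S100a10 by 1.31 (adjusted p = 0.00513, and 0.0509 without IL-7 array 1).

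Frmd4b, Ramp3 and Gem, among the 12 deepest falls, lay outside the lists. Frmd4b, a FERM domain protein, read 4.22 and 3.81 on the IL-7 arrays, against 9.81, 9.96, 10.21 and 10.11 on the ex vivo arrays (change -6.01, SE 0.43). Ramp3, which partners G protein-coupled receptors of the calcitonin family, fell by 5.50 (SE 0.46), and Gem, a small GTPase that inhibits calcium channels, by 4.96 (SE 0.30). Gem and Frmd4b came close to or under the filter value with IL-7.

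The 12 largest rises were of another kind, with no member of the immediate early, granule or cytokine lists. Etfbkmt, a methyltransferase of the electron transfer flavoprotein, led with 10.49 and 9.92 on the IL-7 arrays, against 6.56, 5.51, 6.01 and 5.89 on the ex vivo arrays (change 4.22, SE 0.27, adjusted p = 1.84e-07). The probe set of Mir142 read 12.18 and 12.42 on the IL-7 arrays, against 9.56, 8.28, 9.60 and 8.90 on the ex vivo arrays (change 3.22, SE 0.31). Mir142 gives rise to miRNAs of blood cells, but this array measures a longer transcript annotated to the gene, not the mature miRNAs. The mature sequences at the locus in RefSeq on GRCm38.p6 are shown to identify it, with the seed, bases 2 to 8, in capitals, at chr11:87756867-87756887 and chr11:87756903-87756925 (plus strand).
mmu-miR-142a-5p: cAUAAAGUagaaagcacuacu
mmu-miR-142a-3p: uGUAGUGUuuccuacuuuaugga

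Kcna2, a voltage-gated potassium channel subunit, read 8.88 and 8.96 on the IL-7 arrays, against 5.78, 5.54, 6.37 and 5.38 on the ex vivo arrays (change 3.15, SE 0.22). Zinc finger genes were 3 of the 12: Zkscan8 rose by 3.13 (SE 0.40, with -0.18 on its other probe set), Zfp329 by 2.72 (SE 0.28) and Zfp207, whose product binds kinetochores, by 3.06 (SE 0.20). The 6 probe sets of Zfp207 disagreed, since 4 rose and 1 fell by 0.69 (adjusted p = 0.0492). Carf, a calcium-responsive transcription factor, rose by 3.11 (SE 0.23), Ifit1bl1, of the interferon-induced IFIT family, by 2.85 (SE 0.42), and the sialyltransferase gene St8sia6 by 2.80 (SE 0.33). The transcripts 2010315B03Rik, D930003E18Rik and Gm34006 rose by 3.46, 2.82 and 2.76.

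The comparison of the memory and the naive response asked which genes changed differently on the arrays labelled with IL-7. Naive cells with IL-7 differed from ex vivo naive cells in 2772 genes (20.1%), of which 1678 (12.2%) were higher and 1094 (7.94%) lower. The difference between the 2 responses passed for 127 of 13770 genes, or 0.922%, with the memory change above the naive change in 50 (0.363%) and below it in 77 (0.559%). Of the 127, 26 fell in memory cells with no call in naive cells, 24 rose in memory cells with no call in naive cells, 25 rose and 15 fell in naive cells with no call in memory cells, 21 were called in opposite directions and 16 in the same direction. Naive IL-7 array 2 lay nearer to the ex vivo level for some genes: Nr4a2 read 3.57 and 7.62 on the naive IL-7 arrays, against 11.43 and 11.63 on the naive ex vivo arrays. The count rests on few arrays: it was 13 without naive IL-7 array 2, 17 without memory IL-7 array 2, 24 without naive ex vivo array 1, 33 without memory IL-7 array 1, 63 to 82 without naive ex vivo array 2 or memory ex vivo array 1, 3 or 4, and 7 with both medium arrays in the fit.

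Ecm1, a secreted matrix protein, differed most: it read 6.05 and 6.15 on the memory IL-7 arrays, against 6.65, 5.90, 6.57 and 6.68 on the memory ex vivo arrays. In naive cells, Ecm1 read 10.11 and 10.31 with IL-7, against 6.61 and 6.56 ex vivo, and the difference of the changes was -3.97 (SE 0.33, adjusted p = 5.06e-05). D630039A03Rik had the same form, at 4.97 and 4.82 in memory cells and at 9.09 and 8.88 in naive cells with IL-7 (difference -3.83, SE 0.31). Both genes were thus high only on the naive IL-7 arrays among these 4 groups.

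Genes that fell in memory cells made up others of the negative differences. The difference was -3.30 for Rgs1 (SE 0.31), -3.39 for Gadd45g (SE 0.45), -3.49 for Gzmb (SE 0.63, adjusted p = 0.0230), -2.94 for Fasl (SE 0.31) and -2.97 for Tnf (SE 0.48, adjusted p = 0.0137). Ex vivo levels were not alike: Fasl read 9.02 to 9.67 in memory cells and 4.75 and 4.46 in naive cells. Tnf rose by 1.23 in naive cells (adjusted p = 0.0279) and fell in memory cells. Drc1, a subunit of the regulatory complex of motile cilia, read 6.97 and 4.84 in memory cells with IL-7, and its difference of -3.37 (SE 0.73, adjusted p = 0.0460) held in only 2 of the 10 fits without 1 array. The biosynthetic lists held 8 of 32 ribosome biogenesis genes, 5 of 28 genes of the unfolded protein and amino acid response, 3 of 19 tRNA synthetases and 3 of 21 nucleotide synthesis genes among the 127, all with the memory change below the naive change. Slc7a5 differed by -3.03 (SE 0.51, adjusted p = 0.0145), Mthfd2 by -2.48 (SE 0.43), Shmt1 by -2.45 (SE 0.46), Bysl by -1.99 (SE 0.37), Ctps by -1.59 (SE 0.28) and Nop56 by -1.27 (SE 0.25, adjusted p = 0.0358). Junb, Ier2, Csrnp1 and Myc of the immediate early list differed by -2.07, -1.67, -1.62 and -2.31, and Pim3 by -0.99, while the 3 NR4A genes did not pass (adjusted p = 0.239, 0.575 and 0.636 for Nr4a1, Nr4a2 and Nr4a3).

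Positive differences were smaller. Gm31679 rose by 1.62 in memory cells and fell by 0.99 in naive cells (difference 2.61, SE 0.43, adjusted p = 0.0143). Zbtb38, a transcription repressor of methylated DNA, rose by 0.66 in memory cells (adjusted p = 0.0329, and 0.512 without memory IL-7 array 1, with further losses without ex vivo array 1, 2 or 4, at 0.0663, 0.0755 and 0.0592) and fell by 1.46 in naive cells (difference 2.11, SE 0.32). Kcna2 differed by 2.07 (SE 0.33), St6galnac3, a sialyltransferase, by 2.04 (SE 0.45, adjusted p just under the threshold and lost without any 1 of the 10 arrays), Ifit2 by 2.03 (SE 0.34) and D930003E18Rik by 2.01 (SE 0.39). For Maf and AA414768 the difference, 2.03 (SE 0.39) and 2.00 (SE 0.43), came with changes of -2.40 and -2.50 in naive cells, both past the test, and no call in memory cells. Trp53inp1 and Carf differed by 1.26 and 1.64. Of the 33 differences named here that passed, 7 held without each of the 10 arrays in turn: Cish, D630039A03Rik, Ecm1, Fasl, Gadd45g, Lta and Rgs1. Without naive IL-7 array 2, 26 of the 33 were lost, without memory IL-7 array 2, 25, and without naive ex vivo array 1, 24.

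**Figure D5:**
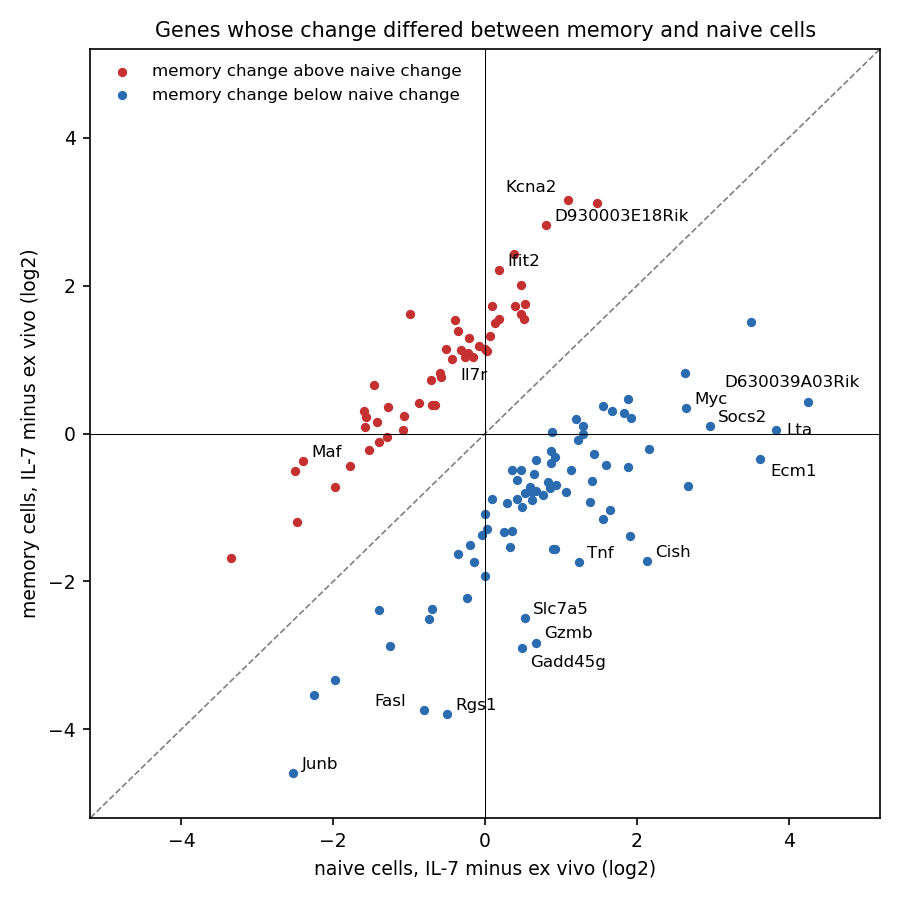
Log2 change with IL-7 against ex vivo in memory cells (vertical) and naive cells (horizontal) for the 127 genes whose changes differed, 50 with the memory change above the naive change (red) and 77 below it (blue), with the line of equal change dashed. The genes were chosen by this difference. Cish lies at -1.72 in memory cells and 2.13 in naive cells.

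Values of medium array 1, which was not used in the comparison, stood near those of the IL-7 arrays for the leading genes. Nr4a1 read 5.51 on medium array 1 and Nr4a2 3.67, beside IL-7 values of 5.77 and 5.64 and of 3.42 and 3.90. Il7r read 13.41 and Kcna2 9.31 on medium array 1, beside IL-7 values of 13.26 and 13.33 and of 8.88 and 8.96. Within the STAT5 list, Cish read 7.49 and 6.62 on the IL-7 arrays and 6.35 on medium array 1, and Bcl2 11.20 and 9.72 against 9.53. The IL-7 arrays exceeded medium array 1 by 0.70 for Cish (SE 0.49), by 0.93 for Bcl2 (SE 0.46) and by 1.07 for Socs3 (SE 0.34, unadjusted p = 0.00655, with no adjusted p under the threshold), and none of the 22 genes passed. Since the test against medium array 1 was overly cautious, as said above, the lack of calls does not show that these genes were alike. On medium array 2, Nr4a1 read 12.60 and Nr4a2 11.67, both within the ex vivo range.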

How the data were processed

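RNA of 18 samples was amplified, labelled with biotin and hybridised to Affymetrix mouse arrays, per the labels' protocols. The deposited values are log2 RMA values, 1 per probe set and array; the submitters' processing notes name RMA and limma without versions. No further normalization was applied. Of 45101 probe sets, 34958 had exactly 1 gene symbol in the platform annotation, 932 several and 9211 none; those with several or none were not tested. Each of 18194 genes was represented by its probe set with the highest mean over the 18 arrays, and 13770 genes with a value over 4.06, the 40th percentile of the table, on 2 or more arrays were tested. limma (version 3.58.1, R 4.3.3) was fitted to 16 arrays in 7 groups, without the 2 memory medium arrays, giving 9 residual and 5.16 prior degrees of freedom, and p-values were adjusted by Benjamini-Hochberg over all genes tested. The method was tested on simulated data. Named genes are the 12 largest rises and 12 largest falls past the threshold with non-overlapping arrays, the 8 largest positive and 8 largest negative differences between the memory and naive responses, and members of the gene lists. The members and lists were chosen with earlier results of these data known. No array probe counts single molecules, so the number of arrays limits the precision. Replicate numbers were not taken to pair samples: no label says so, and the replicate 1 minus 2 differences of the 2 memory groups correlated at 0.135 over genes. Alternatives covered the arrays fitted, the filter, the probe set, the normalization, the replicate block and each array left out.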

Additional observations from a re-analysis of the deposited data

Results flagged for a closer look

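For 9 of the 159 named genes examined, or 5.66%, 1 of the 4 ex vivo memory arrays stood apart from the other 3 by Dixon's test, which chance alone does in about 1 group in 20. The outlying array was high for Fosb (12.04), Rsad2 (10.94), Ctps (10.34) and Bcl2l2 (6.08), and low for Gzmb (6.37), Klrk1 (6.53), Hcst (9.44), Gm31679 (4.34) and Ecm1 (5.90).

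The change with IL-7 differed between memory and naive cells, by limma's test of the difference itself, for these named genes. The difference was below 0, so that the memory change lay under the naive change, for Ecm1 (-3.97), Cish (-3.85), D630039A03Rik (-3.83), Lta (-3.79), Gzmb (-3.49), Gadd45g (-3.39), Drc1 (-3.37), Rgs1 (-3.30), Slc7a5 (-3.03), Tnf (-2.97), Fasl (-2.94), Socs2 (-2.86), Mthfd2 (-2.48), Shmt1 (-2.45), Myc (-2.31), Junb (-2.07), Bysl (-1.99), Ier2 (-1.67), Csrnp1 (-1.62), Ctps (-1.59), Nop56 (-1.27) and Pim3 (-0.99). It was above 0 for Gm31679 (2.61), Zbtb38 (2.11), Kcna2 (2.07), St6galnac3 (2.04), Ifit2 (2.03), Maf (2.03), D930003E18Rik (2.01), AA414768 (2.00), Carf (1.64), Il7r (1.45) and Trp53inp1 (1.26).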

How the results depend on the processing

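Of 134 named genes called between IL-7 and ex vivo memory cells, 113 stayed called without each array in turn and 109 in all 16 planned settings. The total of 3707 was 2059 to 3471 when single arrays were left out and 2257 with medium array 1 in place of the IL-7 arrays. The 127 differences between the memory and naive responses became 7 with all 18 arrays, 69 with the probe set of the largest interquartile range, and 13 to 103 with single arrays left out. With only the groups compared in the fit, the counts were 4050 and 145. Ccl4, Cd44, Cd69, Il2ra, Rgs16 and Tbx21, not called between IL-7 and ex vivo memory cells in the main fit, were called in this one. With the replicate number as a block the counts were 3239 and 124. The labels do not say that the numbers mark shared populations, and the differences between replicates 1 and 2 correlated at 0.135 between the memory groups and 0.141 between the naive groups.

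These changes turned direction: with the probe set of the largest interquartile range Ier5 (0.16), Klf6 (-1.20) and Maf (0.11), under the replicate block Ccl5 (-0.35) and Eomes (-0.41), and after cyclic loess Ccl5 (-0.083), Eomes (-0.098) and Lta (-0.050). Leaving out single arrays gave ranges that cross 0 for Myc (-0.34 to 1.02), Bcl2 (-0.13 to 1.35), Socs2 (-0.50 to 0.70), Lta (-0.35 to 0.44), Eomes (-0.34 to 0.38), Ccl5 (-0.15 to 0.24) and Drc1 (-1.77 to 0.36). Among these genes, under these settings, only Ier5 was called as reported, and the cause was not tested. Probe sets that neither setting used also had the other sign for the called genes Id2 (0.21), Irf4 (0.04), Zkscan8 (-0.18) and Zfp207 (-0.69), and for Mcl1 (-0.59), Socs2 (-0.30), Eomes (-0.26), Cd8a (-0.17 and -0.0057) and Bcl2 (-0.05), which were not called. Values near the filter of 4.06 limit how deep a fall can be read.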
